A study of Mus musculus with 34 samples.

Results

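Lung gene expression was compared between female mice exposed to ozone (O3) and to filtered air (FA) in proestrus, the stage of the estrous cycle that precedes ovulation. The 11 mice (5 O3, 6 FA) were those whose titles name proestrus, of 34 mice in this array series, exposed in 4 stages of the cycle. All were females 8 weeks old, C57BL/6 in the labels and C57BL/6J in the study's methods. They breathed 2 ppm of O3, or FA as the control, for 3 h, and their lungs were taken 4 h later. RNA of the whole lung of each mouse was reverse transcribed and read on a real-time PCR plate with 84 wells for mRNAs of inflammation and autoimmunity (A1 to G12) and 5 wells for housekeeping genes (H1 to H5). The labels give 1 mouse per sample and no other treatment in either group. Replicate numbers only name the mice within a group.

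Ozone is an oxidant gas that reacts with the lining of the airways, and injured epithelium and resident macrophages are known to respond with cytokines and with chemokines, small proteins that guide leukocytes into tissue. Many of these genes are controlled by the transcription factors NF-kappa-B and AP-1. In proestrus, circulating estradiol reaches its highest level of the cycle.

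The files identify wells by position and hold no gene names. A gene could be placed in 20 of the 84 wells. For 17 genes, the difference between group means of the deposited fold changes in a single well was, within 0.0005, the one the study prints for that gene, and Ccl19, Cxcl3 and Ccr2 were placed through the study's heatmap. The 20 names run in alphabetical order along the plate. Because the study printed mainly genes that differed between its groups, the named genes were selected on these same mice, and their calls are not independent evidence of a direction. The 64 other wells are called by position. No well of a defining marker of a lung cell lineage could be named, so the labelled tissue could not be checked, and in whole lung a smaller number of cells of a type and less RNA per cell cannot be told apart.

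Expression is given as -ΔCt, the amount by which the threshold cycle (Ct) of a gene lay below the average Ct of 4 reference wells (H1, H2, H3, H5). It is on a log2 scale, on which a higher value means more mRNA and a step of 1 is a doubling when amplification is complete. Wells of different genes have their own primers, so -ΔCt is compared between mice and not between genes. A well without a Ct was given a Ct of 40, which applied to 25 of 420 values in the O3 mice and 42 of 504 in the FA mice. A log2 fold change is the mean -ΔCt of the O3 mice minus that of the FA mice, with its standard error (SE) and an adjusted p (FDR, Benjamini-Hochberg over the 84 wells) from limma, fitted to the 34 mice in 8 groups of exposure and stage. A gene is said to have risen or fallen where the FDR was under 0.05.

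The Ct values were deposited with different numbers of decimals, and the sources used here do not say whether these mark separate runs. Of the O3 mice, replicates 3 and 4 had 3 decimals and replicates 1, 2 and 5 had 6. Of the FA mice, replicates 2, 3 and 5 had 3 decimals, replicates 4 and 6 had 6, and replicate 1 had more. Both formats held both exposures, and values within each are given beside the results. The 4 reference wells averaged a Ct of 20.35 ± 0.720 (SD, n = 5) after O3 and 21.18 ± 0.736 (SD, n = 6) after FA, a difference of -0.836 cycles (exact two-sided permutation test, p = 0.0952). Wells without a Ct numbered 1 to 7 per O3 mouse and 2 to 12 per FA mouse.

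To show sequences in front of named genes, the 250 bases before the annotated start were read from RefSeq promoters of mouse build GRCm38.p6. Of the 20 named genes, 14 had an entry there. Ccl2, Ccl7, Ccl11, Cd14, Cxcl5 and Nos2 had none. The NF-kappa-B consensus was searched on both strands, with AP-1 (TGANTCA) and the palindromic estrogen response element consensus. The NF-kappa-B consensus was present in 8 of the 14 (Ccl20, Cxcl1, Cxcl2, Cxcl3, Cxcl10, Fos, Il6 and Ltb), against 7.01% of 27025 promoters in the table. The 14 come from an array of inflammation genes, and its wells without a name could not be compared. The matches of Cxcl1, Cxcl2 and Cxcl3, all on chromosome 5, had the same letters. AP-1 was present in 2 of 14 (Cxcl10 and Il6), against 6.87%, and the estrogen response element in 0 of 14, against 0.0629%. A match is a description of letters in a window, and whether a factor bound there was not measured. The windows of 4 genes that rose (Il6, Ccl20, Cxcl1 and Cxcl2) and of Ltb, which fell, are printed 5′ to 3′ on the strand of the gene, with the matches in capitals and the gene start following the last base:
Il6 (chr5:30012864-30013113, + strand): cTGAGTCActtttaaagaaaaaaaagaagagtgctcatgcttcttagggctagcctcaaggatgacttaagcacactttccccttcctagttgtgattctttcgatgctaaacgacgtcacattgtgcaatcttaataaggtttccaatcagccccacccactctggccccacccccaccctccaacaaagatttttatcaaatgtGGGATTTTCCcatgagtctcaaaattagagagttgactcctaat
Ccl20 (chr1:83116516-83116765, + strand): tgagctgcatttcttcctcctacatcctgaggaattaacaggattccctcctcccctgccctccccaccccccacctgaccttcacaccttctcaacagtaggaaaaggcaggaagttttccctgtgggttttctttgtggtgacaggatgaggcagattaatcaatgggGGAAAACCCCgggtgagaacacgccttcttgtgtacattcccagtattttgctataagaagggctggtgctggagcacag
Cxcl1 (chr5:90890995-90891244, + strand): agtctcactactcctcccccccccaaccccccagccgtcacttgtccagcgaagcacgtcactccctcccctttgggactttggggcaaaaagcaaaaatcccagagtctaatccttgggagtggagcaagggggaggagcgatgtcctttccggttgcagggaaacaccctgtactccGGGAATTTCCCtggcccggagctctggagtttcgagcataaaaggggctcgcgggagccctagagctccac
Cxcl2 (chr5:90903649-90903898, + strand): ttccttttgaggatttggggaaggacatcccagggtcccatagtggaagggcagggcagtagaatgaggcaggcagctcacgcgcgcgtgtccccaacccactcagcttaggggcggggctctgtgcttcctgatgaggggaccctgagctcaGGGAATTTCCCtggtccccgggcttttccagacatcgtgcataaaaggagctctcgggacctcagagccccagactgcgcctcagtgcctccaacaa
Ltb (chr17:35194257-35194506, + strand): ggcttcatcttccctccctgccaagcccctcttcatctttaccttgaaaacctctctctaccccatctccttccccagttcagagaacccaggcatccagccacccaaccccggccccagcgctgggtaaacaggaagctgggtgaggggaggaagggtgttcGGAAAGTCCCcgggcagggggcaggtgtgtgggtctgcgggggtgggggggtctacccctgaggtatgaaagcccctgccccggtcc

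In these windows the NF-kappa-B match began 44 bases before the gene start in Il6, 80 in Ccl20, 71 in Cxcl1, 97 in Cxcl2 and 87 in Ltb. In Cxcl1 and Cxcl2 the capitals hold 2 overlapping matches, 1 on each strand. The capitals at the far end of the Il6 window are the AP-1 match, 249 bases before the start. Genes that rose and the gene that fell thus both held the NF-kappa-B letters. Ptgs2, which rose, held none of the 3 motifs in its window, which is not printed.

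In proestrus, 10 wells rose after O3 and 2 fell. This is 14.3% of the 84 wells, with 11.9% higher and 2.38% lower. All 10 that rose were named genes: Il6, Ptgs2, Ccl20, Cxcl2, Cxcl5, Ccl11, Ccl2, Cxcl10, Cxcl1 and Cd14. The 2 that fell were Ltb and well D9. At an unadjusted p under 0.05 there were 21 of the 84 wells. The median log2 fold change was 0.06 over all 84 wells, 1.86 over the 20 named genes and -0.09 over the 64 wells without a name. Of the wells without a name, 1 was past the FDR and 4 had an unadjusted p under 0.05. In 9 wells (10.7%) every O3 mouse lay above every FA mouse, and in 2 wells (2.38%), Ltb and Nos2, every O3 mouse lay below. These 11 wells were all named genes. With H2 as the only reference well, 4 genes passed (Il6, Ccl20, Cxcl5 and Cxcl1), and with the mean Ct of the array wells as the reference, 20 wells passed, 12 higher and 8 lower.

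**Figure D1:**
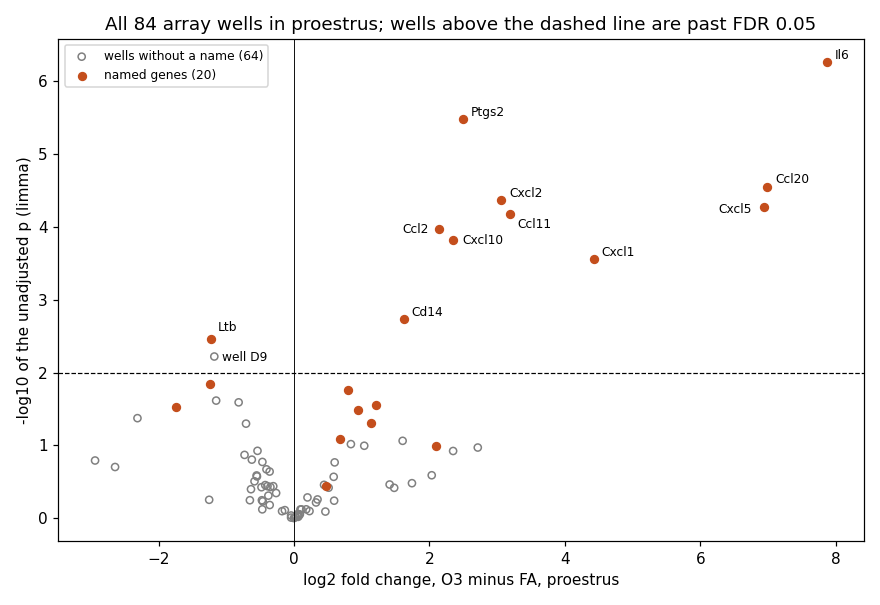
Each circle is 1 of the 84 wells, with the log2 fold change of O3 minus FA in proestrus on the horizontal axis and -log10 of the unadjusted limma p on the vertical axis, and filled circles are the 20 named genes. The 12 labelled wells above the dashed line are past an FDR of 0.05, 10 on the right and 2 on the left.

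Il6 encodes interleukin-6, an acute phase cytokine. In the O3 mice, -ΔCt of Il6 was -8.50, -8.50, -9.39, -11.18 and -7.89 in replicates 1 to 5. In the FA mice it ran from -19.19 to -13.24, with a median of -18.28, and 4 of these 6 mice had no Ct. Every O3 mouse was above every FA mouse, with a distance of 2.06 between the lowest O3 and the highest FA mouse. The 2 FA mice with a Ct were replicate 1 at -13.95 and replicate 5 at -13.24. The log2 fold change was 7.87 (SE 1.22, adjusted p = 4.58e-05). Its size rests on the Ct given to the FA mice without one: with every Ct above 35, and every missing one, set to 35, it was 4.44 (adjusted p = 1.89e-06).

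Ccl20 is a chemokine that epithelial cells release and that attracts cells with the receptor Ccr6. Its -ΔCt in O3 replicates 1 to 5 was -4.51, -4.53, -4.31, -4.65 and -3.82. After FA it ran from -12.87 to -9.53, with a median of -11.58. The O3 mice lay close together, and the lowest was 4.88 above the highest FA mouse, the widest distance of the 11 wells whose groups did not overlap. All 11 mice had a Ct in this well. O3 and FA differed by a log2 fold change of 6.99 (SE 1.40, adjusted p = 0.000807), which is 127-fold. Within the 3-decimal mice it was 7.19 and within the 6-decimal mice 6.25.

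Of the neutrophil chemokines, ligands of the receptor Cxcr2, Cxcl1, Cxcl2 and Cxcl5 rose and Cxcl3 did not pass the test, and the median log2 fold change of the 4 was 3.75. Cxcl1 had -ΔCt values of -9.64, -8.86, -8.96, -10.27 and -8.11 in O3 replicates 1 to 5. The FA values ran from -14.78 to -11.99, with a median of -13.69. The groups were 1.72 apart at their nearest mice, with a log2 fold change of 4.43 (SE 1.07, adjusted p = 0.00262), or 21.5-fold. All FA mice had a Ct for Cxcl1, but a late one, from 34.24 to 35.75, and with the limit at a Ct of 35 the log2 fold change was 4.30. Cxcl2 had values of -6.44, -6.72, -5.47, -6.68 and -5.94 in the O3 mice. Those of the FA mice ran from -10.32 to -7.86, with a median of -9.68. No mouse overlapped, and the log2 fold change was 3.06 (SE 0.634, adjusted p = 0.000905), or 8.36-fold.

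Cxcl5, made mainly by epithelial cells of the lung, had -ΔCt values of -6.79, -6.69, -10.76, -11.45 and -5.78 in O3 replicates 1 to 5. Expression after FA ran from -18.84 to -11.88, with a median of -15.47, and 1 FA mouse had no Ct. The lowest O3 mouse was 0.43 above the highest FA mouse. This gave a log2 fold change of 6.95 (SE 1.46, adjusted p = 0.000905), and 5.18 with the limit at a Ct of 35. The number of decimals went with the level of Cxcl5 in both groups. The 6-decimal mice were 4.68 higher than the 3-decimal mice after O3 and 5.30 higher after FA. Within a format the exposures were farther apart than in the pooled mice, by 5.19 at the nearest 3-decimal mice and 5.09 at the nearest 6-decimal mice, and with the number of decimals as a term in the fit the log2 fold change was 6.09 (adjusted p = 2.24e-08). The formats lay apart in the same direction in both groups in 25 of the 84 wells. Of the 20 named genes, these held Ccl19, Cxcl5, Cxcl10, Ltb, Myd88 and Nos2. The rest, well D9 among them, were wells without a name. Cxcl5 was 1 of 5 wells in which the formats lay apart by more than 2 in the same direction in both groups. The others were B10, C9, F2 and G4, chosen after their values were seen.

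Cxcl3 had -ΔCt values between -9.80 and -9.38 in the O3 mice. In the FA mice it ran from -14.17 to -8.84, with a median of -11.73. All O3 mice lay within a narrow band that the highest FA mouse, replicate 5, exceeded. The log2 fold change was 2.10 (95% interval -0.45 to 4.64, adjusted p = 0.320).

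**Figure D2:**
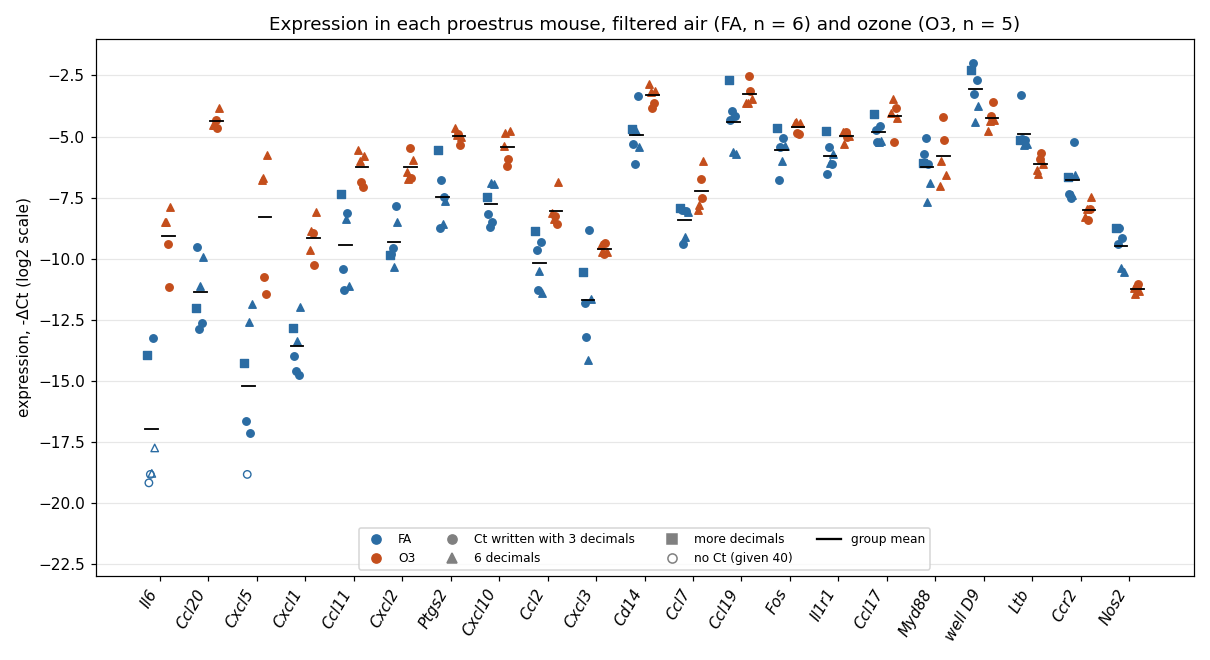
Expression (-ΔCt, log2 scale) of the 20 named genes and well D9 in each of the 6 FA and 5 O3 mice, ordered by log2 fold change, with horizontal lines at the group means, open symbols for mice without a Ct and symbol shapes for the number of decimals. For Il6, Ccl20, Cxcl5, Cxcl1, Ccl11, Cxcl2, Ptgs2, Cxcl10 and Ccl2 no O3 mouse is as low as any FA mouse, and for Ltb and Nos2 no O3 mouse is as high.

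Ptgs2 rose after O3. It encodes cyclooxygenase-2, which makes the precursor of prostaglandins in inflammation. Its -ΔCt in O3 replicates 1 to 5 was -4.66, -4.93, -4.90, -5.35 and -5.03. After FA it ran from -8.77 to -5.57, with a median of -7.56. The SD was 0.252 over the O3 mice and 1.18 over the FA mice, and the highest FA mouse, replicate 1, was 0.21 below the lowest O3 mouse. O3 and FA differed by a log2 fold change of 2.50 (SE 0.433, adjusted p = 0.000141), or 5.64-fold.

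Nos2 encodes inducible nitric oxide synthase, the other inducible enzyme that could be named. Its -ΔCt in O3 replicates 1 to 5 was -11.20, -11.45, -11.16, -11.05 and -11.31. The FA values ran from -10.55 to -8.74, with a median of -9.28. Every O3 mouse was below every FA mouse, by 0.498 at the nearest, yet the log2 fold change of -1.74 (SE 0.758) had an adjusted p of 0.138 in limma. The spread in that fit is shared with the other stages, and without the O3 diestrus mouse that is replicate 2 the adjusted p was 0.000944. With the proestrus mice alone, limma gave an adjusted p of 0.00823, and the exact two-sided permutation test over the 11 mice gave 0.0390 after adjustment. By the criterion stated above Nos2 did not pass.

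Of the monocyte axis, Ccl2 rose, and Ccl7 and Ccr2 did not pass. Ccl2 and Ccl7 are ligands of Ccr2, the receptor that brings monocytes out of the blood. Ccl2 had -ΔCt values of -8.11, -8.38, -8.27, -8.59 and -6.88 in O3 replicates 1 to 5. Those of the FA mice ran from -11.43 to -8.87, with a median of -10.09. The groups did not overlap, with the log2 fold change at 2.14 (SE 0.475, adjusted p = 0.00128), or 4.39-fold, and O3 replicate 5 stood above its group. Ccl7 had -ΔCt values of -8.02, -7.80, -6.74, -7.53 and -6.02 in the O3 mice. Expression after FA ran from -9.38 to -7.93, with a median of -8.07. For Ccl7, 4 of 5 O3 mice were above every FA mouse, and the log2 fold change was 1.21 (adjusted p = 0.138). The receptor Ccr2 had -ΔCt values of -8.28, -7.98, -8.41, -7.99 and -7.47 in O3 replicates 1 to 5. In the FA mice Ccr2 ran from -7.52 to -5.21, with a median of -7.01. For Ccr2, 4 of 5 O3 mice were below every FA mouse, and the log2 fold change was -1.24 (95% interval -2.21 to -0.27, adjusted p = 0.0930).

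Of the type 2 chemokines, Ccl11 (eotaxin, which attracts eosinophils through Ccr3) rose and Ccl17, a ligand of Ccr4, did not pass. Ccl11 had -ΔCt values of -5.54, -6.01, -6.87, -7.08 and -5.81 in O3 replicates 1 to 5. In the FA mice it ran from -11.28 to -7.35, with a median of -9.42. The nearest mice of the groups were 0.27 apart, and the log2 fold change was 3.19 (SE 0.683, adjusted p = 0.000948), or 9.11-fold. Ccl17 had values of -4.06, -3.45, -5.21, -3.84 and -4.23 in the O3 mice. After FA it ran from -5.23 to -4.07, with a median of -4.97. For Ccl17, 3 of 5 O3 mice were above every FA mouse while O3 replicate 3 was at the FA level, and the log2 fold change was 0.68 (95% interval -0.09 to 1.44, adjusted p = 0.297).

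Cxcl10, an interferon-inducible chemokine that attracts T cells and NK cells through Cxcr3, also rose. Its -ΔCt in O3 replicates 1 to 5 was -5.40, -4.85, -6.20, -5.92 and -4.79. The FA values ran from -8.71 to -6.91, with a median of -7.82. The groups were 0.71 apart at the nearest mice, and the log2 fold change was 2.35 (SE 0.537, adjusted p = 0.00157), or 5.10-fold.

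Ltb fell after O3. It encodes lymphotoxin beta, a membrane protein of lymphocytes that maintains lymphoid tissue. Its -ΔCt in O3 replicates 1 to 5 was -6.38, -6.52, -5.92, -5.67 and -6.14. Those of the FA mice ran from -5.33 to -3.29, with a median of -5.16. Of the FA mice, 5 lay between -5.33 and -5.11, with replicate 2 alone at the top, and every O3 mouse was below all 6. This gave a log2 fold change of -1.23 (SE 0.386, adjusted p = 0.0262), so expression was 2.35-fold lower. Without FA replicate 2, or without O3 replicate 1, 2 or 5, Ltb no longer passed, and the adjusted p reached 0.102. With the proestrus mice alone its adjusted p in limma was 0.0680. With H2 or H5 as the only reference well its adjusted p was 0.361 and 0.143.

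Ccl19, which guides T cells and dendritic cells through Ccr7, was the other gene of the lymphoid axis. Its -ΔCt ran from -3.64 to -2.52 in the O3 mice and from -5.70 to -2.67 in the FA mice. The log2 fold change was 1.14 (95% interval 0.00 to 2.27, adjusted p = 0.192). Within each format all O3 mice were above all FA mice, but FA replicate 1, the highest FA mouse, is in neither format. With the number of decimals as a term the log2 fold change was 1.68 (adjusted p = 0.00114).

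Of the genes of sensing and signalling, Cd14 rose, and Il1r1 and Myd88 did not pass. Cd14 is the co-receptor of Toll-like receptor 4 on monocytes and macrophages. It had -ΔCt values of -2.86, -3.16, -3.82, -3.62 and -3.13 in O3 replicates 1 to 5. In the FA mice Cd14 ran from -6.12 to -3.34, with a median of -5.04. The highest FA mouse, replicate 5, reached into the O3 range, and 3 of 5 O3 mice were above every FA mouse. The log2 fold change of Cd14 was 1.63 (SE 0.474, adjusted p = 0.0157), or 3.09-fold. Without O3 replicate 1 or FA replicate 3 Cd14 did not pass (adjusted p up to 0.0531).

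Il1r1, the signalling receptor of interleukin-1, ran from -5.29 to -4.80 in the O3 mice and from -6.54 to -4.78 in the FA mice. Its log2 fold change was 0.80 (95% interval 0.15 to 1.44, adjusted p = 0.103). The groups overlapped through FA replicate 1. Myd88, the adaptor that Toll-like and interleukin-1 receptors share, ran from -7.01 to -4.20 after O3 and from -7.69 to -5.05 after FA. Its log2 fold change was 0.48 (95% interval -0.58 to 1.54, adjusted p = 0.594).

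Fos, an immediate early subunit of AP-1, had -ΔCt values of -4.45, -4.42, -4.86, -4.88 and -4.44 in O3 replicates 1 to 5. Expression after FA ran from -6.76 to -4.65, with a median of -5.42. For Fos, 3 of 5 O3 mice were above every FA mouse. O3 and FA differed by a log2 fold change of 0.94 (SE 0.420, adjusted p = 0.145).

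Well D9, which could not be named, was the other well that fell. Its -ΔCt in O3 replicates 1 to 5 was -4.79, -4.38, -4.15, -3.58 and -4.33. In the FA mice it ran from -4.40 to -2.002, with a median of -2.98. The groups overlapped, with 1 of 5 O3 mice below every FA mouse. This gave a log2 fold change of -1.18 (SE 0.397, adjusted p = 0.0422), with -1.21 within the 3-decimal mice and -0.42 within the 6-decimal mice. In 8 of the 34 fits that left out 1 mouse, D9 did not pass, and the exact permutation test over the 11 mice gave an adjusted p of 0.140.

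Within the mice of 1 format the direction of the 20 named genes was that of the pooled mice. The 3-decimal mice alone (2 O3, 3 FA) gave 10 wells past the FDR and the 6-decimal mice alone (3 O3, 2 FA) gave 9. Each held 8 of the 12 wells that passed in all mice. The 3-decimal mice lost Ccl2, Cd14, Cxcl1 and Ltb and gained wells E5 and F12. The 6-decimal mice lost Ccl11, Cxcl2, Ltb and well D9 and gained Ccl19, so Ltb passed in neither format. In 18 of 84 wells (21.4%) the exposures did not overlap within either format, in the same direction in both, and 16 of these were named genes. The 5 named genes that this adds to the 11 without overlap among all mice were Ccl7, Ccl19, Ccr2, Fos and Il1r1. FA replicate 1, whose Ct values had more decimals, is in neither format and so is left out of this comparison. It was the highest FA mouse for Ccl7, Ccl19, Fos and Il1r1. With that mouse left out, the pooled mice did not overlap for Ccl19, Fos and Il1r1 either. With the number of decimals as a term in the limma fit, 17 wells passed, 14 higher and 3 lower. They held all 12 wells named above and also Ccl7 (1.45, adjusted p = 0.0442), Ccl19, Fos (1.12, adjusted p = 0.0283), Il1r1 (0.99, adjusted p = 0.00661) and well F1.

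**Figure D3:**
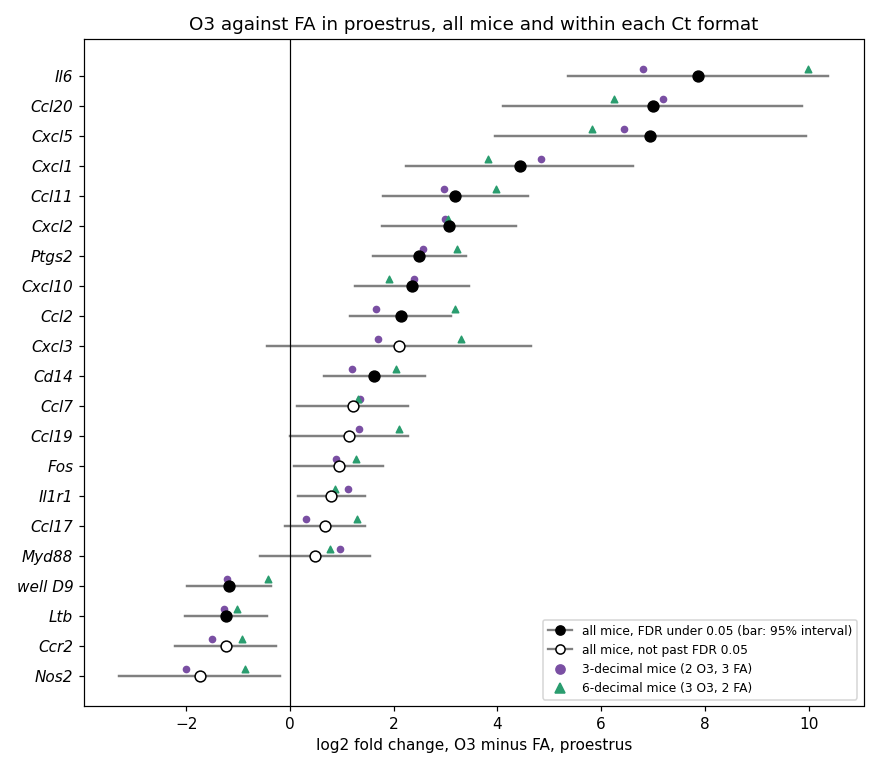
Log2 fold change of O3 minus FA in proestrus for the 20 named genes and well D9, with 95% intervals from limma (filled: FDR under 0.05), and the differences within the 3-decimal mice (2 O3, 3 FA) and the 6-decimal mice (3 O3, 2 FA). Within both formats the points lie on the same side of 0 as the pooled value, from Il6 at 7.87 to Nos2 at -1.74.

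The response in proestrus was set beside that in estrus (3 O3, 6 FA), metestrus (3 O3, 4 FA) and diestrus (3 O3, 4 FA). No mice are shared between these stages and proestrus. The Ct formats were not balanced over the stages. All O3 mice of metestrus and diestrus had 3 decimals, and FA replicates 1 and 2 of diestrus had the format with more decimals. In proestrus each exposure held both 3-decimal and 6-decimal mice. Format and stage thus cannot be fully told apart in these comparisons. In limma, 12 wells passed in estrus (14.3%), 6 in metestrus (7.14%) and 10 in diestrus (11.9%). The test of the difference between O3 effects called 0 wells for proestrus against the mean of the other stages, 0 against estrus and 0 against metestrus, and the unadjusted p was under 0.05 in 7, 2 and 4 wells. On the deposited linear fold changes, 1 well, Cxcl1, passed against the mean of the other stages. Against diestrus 1 well passed (1.19%), with 14 of the 84 at an unadjusted p under 0.05.

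Il6, Ccl20 and Cxcl2 passed the FDR in each of the 4 stages. The log2 fold change of Ccl20 was 6.99 in proestrus, 8.49 in estrus, 6.75 in metestrus and 7.14 in diestrus. That of Il6 was 7.87, 6.76, 7.67 and 5.96 in the same order, and that of Cxcl2 3.06, 2.99, 3.22 and 2.44. Some of these rest on the Ct of 40: Ccl20 had no Ct in 2 of 4 FA mice in diestrus and 1 of 6 in estrus, and Il6 had none in 4 of 6 FA mice in proestrus, 3 of 6 in estrus, 3 of 4 in metestrus and 2 of 4 in diestrus. With a Ct limit of 35 the 4 values, in the same order, were 6.99, 7.65, 6.75 and 4.64 for Ccl20 and 4.44, 3.94, 3.92 and 3.32 for Il6. The O3 effect in proestrus minus the mean of the other stages was 1.07 for Il6 (limma adjusted p = 0.892), -0.47 for Ccl20 (SE 1.72, adjusted p = 0.967) and 0.18 for Cxcl2 (SE 0.778, adjusted p = 0.967).

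Ccl11, Cxcl1 and Cd14 had larger values in proestrus than in diestrus without passing the test of the difference, and Ccl11 and Cd14 had their largest values in estrus. Ccl11 had a log2 fold change of 3.19 in proestrus, 3.31 in estrus, 1.89 in metestrus and 0.16 in diestrus, and the difference between proestrus and diestrus was 3.03 (95% interval 0.78 to 5.28, limma adjusted p = 0.214). Cxcl1 had 4.43, 3.71, 3.13 and 0.62 in the same order, with no Ct in 1 FA and 1 O3 mouse of diestrus and a proestrus minus diestrus difference of 3.81 (adjusted p = 0.281), and Cd14 had 1.63, 2.21, 1.34 and 0.05, with a difference of 1.58 (adjusted p = 0.281). With a Ct limit of 35, Cxcl1 and Cxcl5 passed this test. The level of Cxcl5 went with the Ct format in proestrus, and all O3 mice of diestrus had 3 decimals. Ltb had -1.23 in proestrus, -0.91 in estrus, -0.50 in metestrus and -0.09 in diestrus, and passed the FDR in proestrus alone, but its difference from the mean of the other stages was -0.73 (adjusted p = 0.817). Ccl17 had its smallest effect in proestrus, 0.68 against 1.90, 1.58 and 1.61, and its difference from the mean of the other stages was -1.02 (adjusted p = 0.448).

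**Figure D4:**
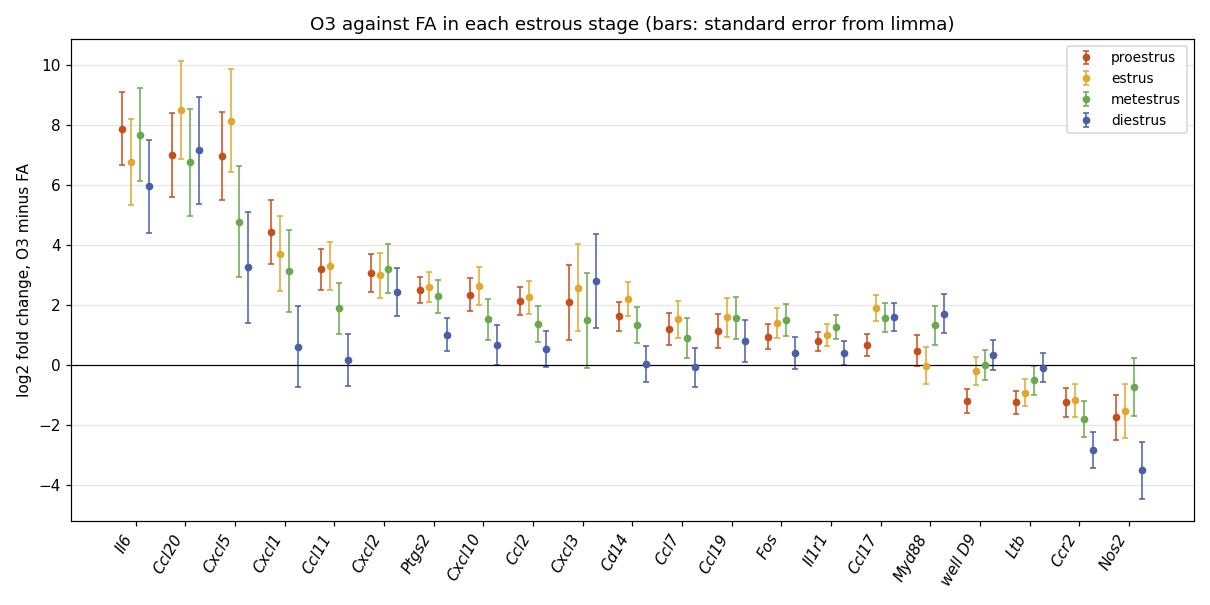
Log2 fold change of O3 minus FA in proestrus, estrus, metestrus and diestrus for the 20 named genes and well D9, with SE bars from limma, in the order of the proestrus values. Ccl20 lies between 6.75 and 8.49 in the 4 stages, with wells without a Ct at 40, while Ccl11 and Cd14 lie near 0 in diestrus (0.16 and 0.05).

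The well that differed from diestrus was E1, which could not be named and was singled out after its values were seen. In proestrus its -ΔCt was -6.73 ± 0.433 (SD, n = 5) after O3 and -7.17 ± 0.277 (SD, n = 6) after FA, and the difference of 0.44 on the log2 scale did not pass the test (limma adjusted p = 0.594). In diestrus it was -9.25 ± 0.971 (SD, n = 3) after O3 and -6.65 ± 1.05 (SD, n = 4) after FA, which differ by -2.60 (limma adjusted p = 0.00512). The difference between these 2 effects was 3.04 (95% interval 1.52 to 4.57, limma adjusted p = 0.0280). Its larger part was the lower value after O3 in diestrus, while in proestrus 4 of 5 O3 mice were above every FA mouse. This difference did not pass without O3 proestrus replicate 1, 2 or 5, FA proestrus replicate 6, O3 diestrus replicate 1 or 2, or FA diestrus replicate 2 or 4.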

How the data were processed

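Per the labels and the study's methods, total RNA of lung homogenates was extracted with Direct-zol, 400 ng was reverse transcribed, and each mouse was read on its own SYBR Green PCR array. Ct settings are not given in the sources used here. The authors deposited raw Ct values per well, treated here as a score in cycles with no normalization, and a table of linear fold changes (a ratio to 1 calibrator mouse). The fold changes served to place genes and as an alternative scale. How many molecules a Ct stands for is not known, so no counting interval is given.

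-ΔCt was computed per mouse and fitted with limma 3.58.1 in R 4.3.3 (lmFit, contrasts.fit, eBayes) over 34 mice in 8 groups, two-sided, with Benjamini-Hochberg adjustment over 84 wells. Permutation tests enumerated the 462 splits of the 11 mice. Python 3.11.15 with numpy 2.4.6, pandas 2.3.3, scipy 1.17.1 and matplotlib 3.10.9 did the rest. In simulated data for O3 against FA in proestrus (84 wells, 20 rounds), 333 of 340 changed wells were recovered and 3.20% of calls were false. Recovery of changes of the sizes measured in these mice, or in wells without a Ct, was not tested. In none of the 55 pairs of proestrus mice did any well hold an equal Ct in both. Every gene that could be placed was named, with wells past the FDR. The comparison, lists and rules were chosen with earlier results of these data known. The alternatives were other reference wells, other values for missing Ct, a filter on low wells, proestrus mice only, limma's trend and robust options, the deposited fold changes, a replicate block, the number of decimals, a permutation test, and each mouse left out. The fit within the 6-decimal mice, and the comparison of levels between formats, were added after seeing the data.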

Additional observations from a re-analysis of the deposited data

Results flagged for a closer look

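Among the values of the named genes, well D9 and the quality wells, 48 groups of values were examined for a single mouse far from the others, of which chance gives about 1 in 20, and 4 were found. Ccl2 in O3 replicate 5 was high, at a -ΔCt of -6.88. Ltb in FA replicate 2 was high, at -3.29. The mean Ct of wells H7 to H9 was low in O3 replicate 3, at 18.79 cycles. The mean Ct of wells H10 to H12 was high in FA replicate 1, at 23.56 cycles, and this was the proestrus mouse with the most decimals in its Ct values. In the other 10 mice the mean of H10 to H12 was 20.48 (O3) and 20.15 (FA) with 3 decimals, and 19.19 (O3) and 19.24 (FA) with 6. The labels do not name what wells H6 to H12 hold. Results within each format, and with the number of decimals as a term in the fit, are given above, as is the fit for Ltb without FA replicate 2. Well E1 differed in its O3 effect between proestrus and diestrus, by 3.04 (limma adjusted p = 0.0280), with the largest O3 effect of its stages in diestrus.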

How the results depend on the processing

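No log2 fold change of a named gene changed sign under any alternative. The 12 wells past the FDR in proestrus became 4 with H2 as the only reference well (4 higher, 0 lower) and 20 with the mean Ct of the array wells (12 higher, 8 lower). H5 alone gave 14, all higher. The other settings gave 8 to 17. The median of all wells, 0.06 with 4 reference wells, ran from -0.18 with H2 to 0.30 with H5. Leaving out each mouse gave 9 to 13 wells in proestrus, with 9 without O3 replicate 1, and 0 throughout for the differences from estrus, metestrus and the mean of the other stages. Il6, Ptgs2, Ccl20, Cxcl2, Cxcl5, Ccl11, Ccl2, Cxcl10 and Cxcl1 passed in all 34 of these fits. On the linear fold changes 1 well differed from the mean of the other stages. Against diestrus, where 1 well passed, the count was 0 with H2, 0 with H3, 2 with H5, 3 with a Ct limit of 35, 2 on linear fold changes, 0 with the number of decimals as a term, 0 within the 3-decimal mice, and 0 to 2 with a mouse left out. The causes were not tested.

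With the replicate number as a block, 11 wells passed in proestrus, D9 being lost, and 0 in the difference from diestrus. The numbers name the mice within a group, and the correlations could not decide whether they also pair them. Same-numbered deviations correlated at 0.24, -0.30, 0.35, -0.32 and -0.09 over wells, and 2 of the 5 numbers correlated best with their own. For every number but 3, the O3 and FA mice differed in Ct format. Low expression limits Il6 and Cxcl5 in proestrus, and at least Il6, Ccl20, Cxcl1, Cxcl3 and Cxcl5 in the other stages, where values rest partly on wells without a Ct. Cxcl1 was also low in the FA mice of proestrus, with a Ct from 34.24 to 35.75, though none was missing.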
